A study of Mus musculus with 4 samples.

Results

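Wide domains of elongating RNA polymerase II that were listed in the adult mouse uterus, with neither a juvenile counterpart nor a FOXA2 interval upon them, numbered 1744. They were the intervals of the adult POL2 list that were 5000 bp or wider and overlapped, by 1 bp or more, no POL2 interval of postnatal day 12 (PD12) and no FOXA2 interval of either stage. They made up 11.8% of the 14818 adult POL2 domains and 24.0% of the 7280 that were at least as wide. They were chosen by width and by presence in the 4 lists, so their number is a description of the lists, and 40.3% of adult POL2 domains of any width were free of the other 3 lists in the same way.

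The series profiled whole uterus of female mice by chromatin immunoprecipitation and sequencing. The adult tissue came from pseudopregnancy, with days 2.5 and 3.5 on a single label, and the juvenile tissue from postnatal day 12. At each stage 1 library was made with anti-FOXA2 and another with an antibody that recognises the serine 2-phosphorylated repeat of polymerase II, giving 4 libraries in all. The labels give no strain, genotype, number of animals or way of combining the days. With 1 library per group no difference here has a replicate check and no p-value is given. The 95% intervals on shares are exact binomial (Clopper-Pearson) ones that cover counting error alone, since domains of a list are not replicates.

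Polymerase II gains phosphate on serine 2 in its C-terminal repeat as it moves into the gene body, so this form marks the transcribed length of active genes rather than their start sites. FOXA2 is a forkhead transcription factor that in the uterus is found in the glandular epithelium, which is a small part of a tissue made mostly of stroma and smooth muscle. Pseudopregnancy follows a sterile mating, and in its first days ovarian progesterone acts on the stroma and epithelium as it would before an embryo implants. In whole uterus, a larger share of cells with polymerase on a region and more polymerase per cell cannot be told apart.

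The lists hold positions with no height, score or count, so library depth is unknown and a domain missing from a list may lie under the threshold of that library. The adult POL2 list covered 95.2 Mb and the PD12 list of 9972 domains 70.4 Mb, and the FOXA2 lists held 10373 adult and 814 PD12 intervals. The sources name no genome build. Of the adult POL2 domains 102 ended beyond the last gene of the GRCm38 gene table at hand, 5 of them from the set described here, so the lists were not placed on that assembly. Positions are those of the deposited files, counted from 1 with both ends included, and no gene, exon or sequence is stated for any region.

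The wide adult-only domains without FOXA2 covered 13.7 Mb and were mostly close to the width minimum. Their median width was 6800 bp (95% interval 6600 to 7000, interquartile range 5800 to 8600) and the widest reached 37.6 kb. Of the 1744, 29.9% were 5 to 6 kb wide, 36.7% were 6 to 8 kb and 1.72%, or 30 domains, were 20 kb or wider. Adult-only domains with FOXA2, 269 in number, had a median of 7200 bp (6800 to 7800) and reached 74000 bp. The 4380 domains that were shared with PD12 and free of FOXA2 had a median of 8400 bp (8200 to 8600) and reached 98200 bp. The median of the adult-only set without FOXA2 was below the interval of the shared set, and its interval met that of the adult-only set with FOXA2. The sets are defined by overlap, which longer intervals meet more often by length alone. The part of this in the lower median and maximum was not tested.

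**Figure D1:**
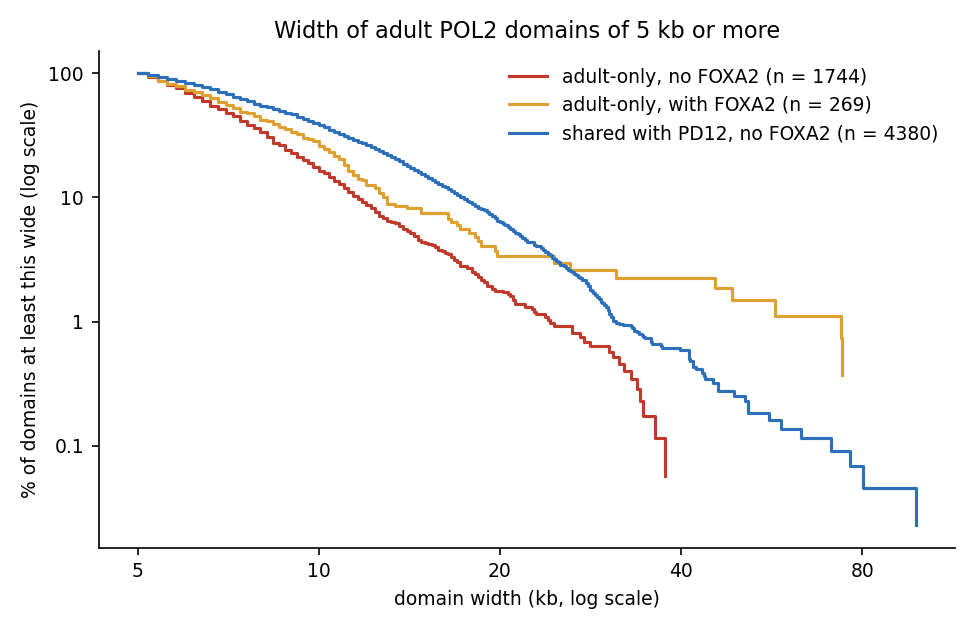
Percent of domains (vertical, log scale) at least as wide as the width on the horizontal axis (kb, log scale), for adult-only domains without FOXA2 (n = 1744), adult-only domains with FOXA2 (n = 269) and domains shared with PD12 without FOXA2 (n = 4380). The curve of adult-only domains without FOXA2 ends at 37.6 kb, that of adult-only domains with FOXA2 at 74.0 kb and that of shared domains at 98.2 kb.

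Among adult domains of 5 to 6 kb, 37.3% (34.8 to 39.9) were adult-only and without FOXA2, and among those of 20 kb or more 6.34% (4.32 to 8.93). The step between these was steady, with 24.2% (21.9 to 26.7) at 8 to 10 kb and 14.0% (12.3 to 15.9) at 10 to 15 kb. The part free of PD12 POL2 was 42.3% (39.7 to 45.0) at 5 to 6 kb and 8.03% (5.75 to 10.9) at 20 kb or more. Within the adult-only domains, the part free of FOXA2 was 88.2% (85.3 to 90.7) at 5 to 6 kb and 78.9% (62.7 to 90.4) at 20 kb or more. A wide interval touches another list more often by its length alone, and how much of the step this makes was not tested.

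At the width minimum, 116 domains of exactly 5000 bp were included and 114 domains of 4800 bp, the next width on the list's grid of 200 bp, were left out. The 5000 bp domains lay a median of 21.8 kb from the nearest PD12 POL2 domain and the 4800 bp domains 22 kb. From the nearest adult FOXA2 interval these medians were 51.7 and 52.0 kb. From the nearest other adult POL2 domain they were 9.6 and 7.7 kb. That median was 6.6 kb for domains of 4600 bp and 5 kb for those of 5200 bp, so it moved up and down between neighbouring widths.

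The rule asked for no overlap with PD12 POL2 and left the distance beyond that free. The domains lay a median of 20.2 kb (interquartile range 6.4 to 65) from the nearest PD12 POL2 domain. A PD12 domain lay within 10 kb of 603 of them (34.6%, 32.3 to 36.9), against 34.0% over all wide adult domains without PD12 overlap and 30.5% (25.04 to 36.4) over the adult-only domains with FOXA2. It lay within 1 kb of 87 (4.99%, 4.01 to 6.12), and 10 abutted a PD12 domain with no free base between. At the other extreme 526 (30.2%, 28.0 to 32.4) had no PD12 domain within 50 kb, and 55 (3.15%, 2.38 to 4.09) had none within 500 kb. Over all 2013 wide adult domains without PD12 overlap, which include this set, 4.62% (3.74 to 5.63) had a PD12 domain within 1 kb. One lay within 50 kb of 69.7% of those and 69.8% of this set, and within 500 kb of 96.9% and 96.8%. Since 1744 of the 2013 are this set, these shares could hardly differ. Among the other 269, which held FOXA2, 2.23% (0.823 to 4.79) had a PD12 domain within 1 kb. One lay within 50 kb of 69.1% (63.25 to 74.6) of the 269 and within 500 kb of 97.4% (94.7 to 98.9). The set ranged from domains that bordered PD12 polymerase to domains that stood far from it, and both near and far domains were present among the 269.

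Distance to FOXA2 was also left free by the rule. The nearest adult FOXA2 interval was a median of 46.9 kb away (17.7 to 105.0), against 43.7 kb for the shared domains without FOXA2. It was under 10 kb for 248 domains (14.2%, 12.6 to 15.9), against 14.7% over all wide adult domains free of adult FOXA2 and 14.7% (13.7 to 15.8) of the shared ones. At this distance the shares were within counting error of each other. Within 1 kb it was 1.43% (25 domains, 0.930 to 2.11) of the adult-only domains without FOXA2 and 0.639% (28 domains, 0.425 to 0.923) of the shared ones. These intervals narrowly failed to meet, and the share over all wide adult domains free of adult FOXA2 was 0.876% (0.659 to 1.14). Within 2 kb the shares were 2.98% (2.23 to 3.89) and 2.12% (1.72 to 2.59). Within 5 kb they were 7.63% (6.42 to 8.97) and 6.71% (5.99 to 7.49), and at both distances the intervals met. The nearest PD12 FOXA2 interval, from the much shorter list, was a median of 746 kb away, and 108 domains (6.19%, 5.11 to 7.43) had one within 50 kb. Over all wide adult domains free of PD12 FOXA2 that share was 6.48% (5.92 to 7.08).

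Set against each other, the PD12 POL2 domain was the nearer of the pair for 1156 domains (66.3%, 64.0 to 68.5) and the adult FOXA2 interval for 588 (33.7%, 31.5 to 36.0). Both lay within 50 kb of 648 domains (37.2%, 34.9 to 39.5). PD12 POL2 without adult FOXA2 was within that distance of 570 (32.7%, 30.5 to 34.9), and adult FOXA2 without PD12 POL2 of 241 (13.8%, 12.2 to 15.5). The remaining 285 (16.3%, 14.6 to 18.2) were 50 kb or more from both, and 282 of these were also that far from PD12 FOXA2. Few wide adult domains of any kind lay near that short list. The pairings in this paragraph were not computed for other sets. Among the 30 domains of 20 kb or more, 12 were 50 kb or more from PD12 POL2 and 7 were that far from adult FOXA2 as well.

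**Figure D2:**
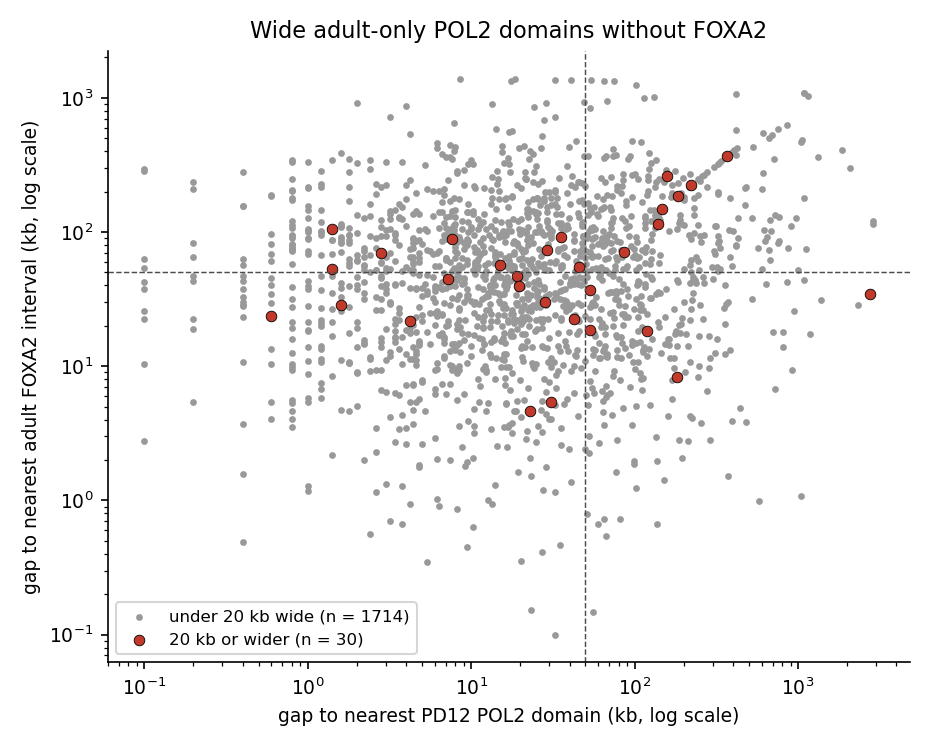
Gap from each of the 1744 domains to the nearest PD12 POL2 domain (horizontal, kb, log scale) and to the nearest adult FOXA2 interval (vertical, kb, log scale), with the 30 domains of 20 kb or more in red and dashed lines at 50 kb. Gaps under 0.1 kb, 10 to PD12 POL2 and 1 to FOXA2, are drawn at 0.1 kb. The upper right field holds the 285 domains that were 50 kb or more from both.

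Other adult POL2 domains were close by. The nearest was a median of 5 kb away (interquartile range 1.2 to 17.4), and it lay within 10 kb of 1119 domains (64.2%, 61.9 to 66.4), against 65.2% of all wide adult domains. A neighbour within 2 kb was present for 586 (33.6%, 31.4 to 35.9), against 28.3% (23.0 to 34.0) of adult-only domains with FOXA2 and 39.5% (38.1 to 41.0) of shared domains without it. The smallest gap between adult domains in the list was 800 bp. Whether neighbours belong to 1 transcribed region cannot be read from the lists.

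The nearest adult neighbour was itself adult-only for 1035 domains (59.3%, 57.0 to 61.7). It was another wide adult-only domain without FOXA2 for 386 of them (22.1%, 20.2 to 24.2) and a narrower adult-only domain without FOXA2 for 551 (31.6%, 29.4 to 33.8). The split by kind of adult-only neighbour was not computed for other sets. A neighbour shared with PD12 was nearest for 709 (40.7%, 38.3 to 43.0). Over all wide adult domains that share was 57.3% (56.1 to 58.4). For adult-only domains with FOXA2 it was 40.1% (34.2 to 46.3), and for shared domains without FOXA2 63.1% (61.6 to 64.5). Narrower adult-only domains without FOXA2 lay between, at 47.4% (45.9 to 48.9). Adult-only domains thus had adult-only neighbours more often than shared domains did, whether or not they held FOXA2, by more than the counting error. Pieces of a single long region can be neighbours of each other, and their part in this was not tested. Where neighbours on both sides were equally near, the one at the lower position was counted. How often this occurred was not computed.

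The bases beside the domains were covered more by adult than by PD12 polymerase. In the 50 kb on each side, adult POL2 covered a median of 17.6 kb (interquartile range 7.2 to 31.4) and PD12 POL2 6.5 kb (0 to 15.1). Adult coverage was the higher for 1364 of the 1744 domains (78.2%, 76.2 to 80.1), against 63.1% over all wide adult domains, 75.5% (69.9 to 80.5) of adult-only domains with FOXA2 and 57.7% (56.2 to 59.1) of shared domains without it. PD12 coverage was the higher for 230 (13.2%, 11.6 to 14.9), and both were 0 for 139 (7.97%, 6.74 to 9.34). Beside the adult-only domains with FOXA2 the medians were 16.2 kb for the adult and 6.6 kb for PD12, close to those of the set without FOXA2. Beside the shared domains without FOXA2 they were 15.8 and 12.2 kb. Shared domains were defined by overlap with PD12 POL2, which can run on into their flanks, so the lower PD12 value beside adult-only domains partly restates the rule.

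With distance, adult coverage beside the adult-only domains without FOXA2 was 29.1% of bases at 8 to 10 kb from a domain end, 16.2% at 48 to 50 kb and 11.6% at 98 to 100 kb. PD12 coverage was 2.74% in the nearest 2 kb, 12.2% at 18 to 20 kb and 7.30% at 98 to 100 kb. Beside the shared domains PD12 coverage was 34.4% in the nearest 2 kb and 9.19% at 98 to 100 kb. Adult coverage in the nearest 2 kb was 9.53% beside the adult-only domains without FOXA2. No gap between adult domains was under 800 bp, so the bases nearest a domain could not be covered. Beside the shared domains adult coverage was 11.3% in the nearest 2 kb, 26.5% at 8 to 10 kb, 14.8% at 48 to 50 kb and 11.9% at 98 to 100 kb. Beside the adult-only domains without FOXA2, adult FOXA2 covered 0.471% of bases in the nearest 2 kb and 0.587% at 98 to 100 kb, with no steady change between.

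**Figure D3:**
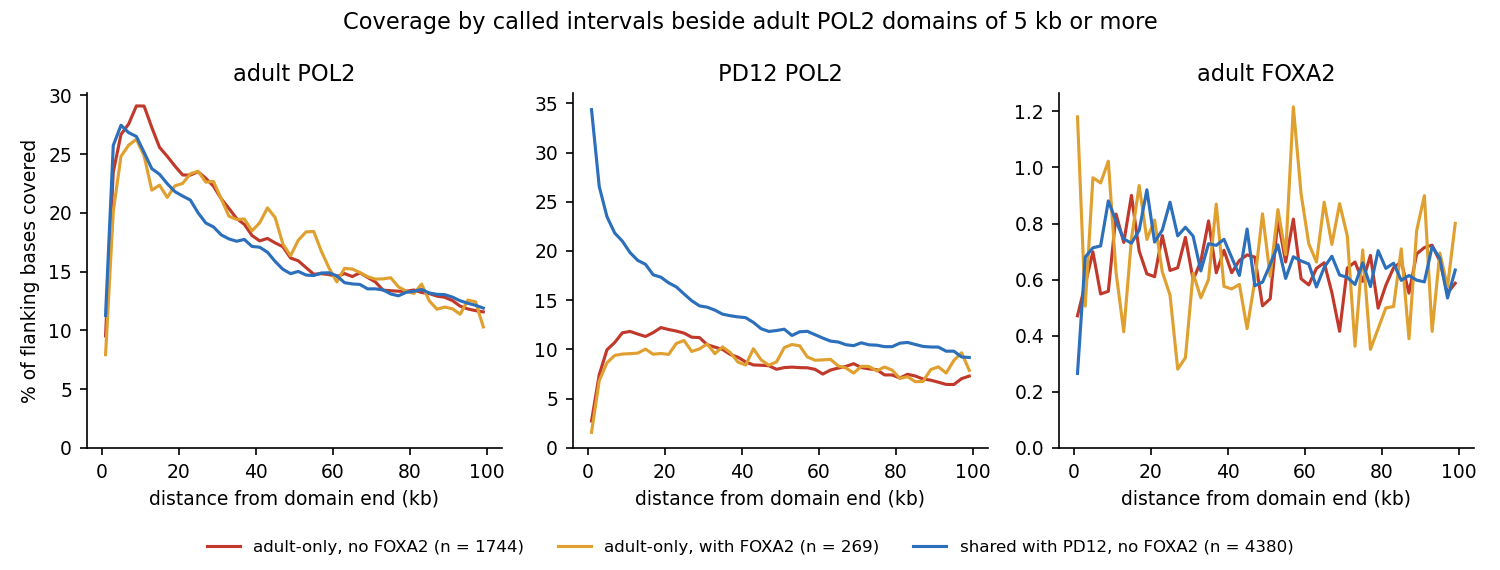
Percent of flanking bases (vertical) covered by adult POL2, PD12 POL2 and adult FOXA2 intervals in bins of 2 kb, against distance from the domain end up to 100 kb (horizontal), for adult-only domains without FOXA2 (red), adult-only domains with FOXA2 (yellow) and domains shared with PD12 without FOXA2 (blue). The vertical scale differs between panels. At 8 to 10 kb adult POL2 covers 29.1%, 26.3% and 26.5% of bases beside these sets, and PD12 POL2 covers 11.7%, 9.54% and 21.0%.

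With adult POL2 domains bridged wherever a gap was 5 kb or less, the 1744 domains fell into 1525 of the 10620 joined stretches. A single such domain was held by 1371 stretches, 120 held 2 and 34 held 3 or more, with 9 as the highest number. No other adult domain shared the stretch of 859 domains (49.3%, 46.9 to 51.6). The stretch held some PD12 POL2 for 495 (28.4%, 26.3 to 30.6) and a FOXA2 interval of either stage for 210 (12.0%, 10.6 to 13.7), with both present for 145. It was free of PD12 POL2 and of FOXA2 along its whole length for 1184 (67.9%, 65.6 to 70.1). These include the 859 that stood alone, whose stretches were free of both by the rule. The others, 325 (18.6%, 16.8 to 20.5), lay with other adult domains. None of these stretch shares was computed for other sets of domains, so they are descriptions without a background. Stretches with FOXA2 and without PD12 POL2 held 65 of the domains (3.73%, 2.89 to 4.73). Domains that stood alone had a median width of 6.6 kb (6.4 to 6.8), and those in a stretch with another of their kind 7.6 kb (7.2 to 8).

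The most bases of this kind lay in 2 neighbouring stretches on chromosome 19. The first, at 17656000 to 17771199, held 7 of the domains with 103.2 kb between them, together with 2 narrower adult-only domains. The second, at 17781800 to 17912399, held 9 with 98.4 kb and 3 narrower ones. The gap between the stretches was 10.6 kb. PD12 POL2, adult FOXA2 and PD12 FOXA2 had no interval in either stretch. The nearest PD12 POL2 domain was 179.4 kb from the first stretch, and the nearest adult FOXA2 interval 180.6 kb.

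A further domain of this kind, at 17623600 to 17648199 (24.6 kb), lay just beside the first stretch. When gaps of up to 15 kb were joined, a distance chosen after the values were seen, the 17 domains formed a run of 288.8 kb from 17623600 to 17912399. Adult POL2 covered 241.6 kb of it (83.7%) in 22 domains, none of them shared with PD12. The run lay 147 kb from the nearest PD12 POL2 domain and 148.2 kb from the nearest adult FOXA2 interval. The nearest PD12 FOXA2 interval was 3240 kb away. The widths of the domains in the run were uneven, with 30.8, 27.2, 24.6 and 22.6 kb for the widest and 5.4 kb for the narrowest.

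On chromosome 6 the stretch at 30999000 to 31171999 (173 kb) was 98.2% covered in the adult. Its first part was a single wide adult domain that overlapped 23.2 kb of PD12 POL2 and held 1 adult FOXA2 interval. The remainder held a narrower adult-only domain and 3 wide adult-only domains without FOXA2, of 18.6, 27.6 and 37.6 kb, at 31081800 to 31100399, 31101200 to 31128799 and 31134400 to 31171999. Their gaps to the nearest PD12 POL2 were 34, 53.4 and 86.6 kb. The last was the widest of all 1744 domains and lay 70.4 kb from the FOXA2 interval. Here POL2 of PD12 was listed at one end of the stretch, and the adult-only domains made up the other.

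On chromosome 3, at 79444800 to 79542399 (97.6 kb), the adult stretch held 6 of the domains with 75.2 kb between them and no PD12 POL2. A single adult FOXA2 interval lay inside, on another adult domain. The 6 domains were 1.25 to 36.3 kb from their nearest adult FOXA2 interval, inside or outside the stretch. The nearest PD12 POL2 domain was 34.8 kb outside the stretch.

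The stretch on chromosome 11, at 76054800 to 76215999 (161.2 kb), was a mosaic. It held 6 of the domains with 75 kb between them, 4 adult domains shared with PD12 and 41.6 kb of PD12 POL2. The widest of the 6, at 76088000 to 76112599 (24.6 kb), began 0.6 kb from a PD12 domain, and another, at 76147600 to 76154399 (6.8 kb), lay 0.4 kb from one. The single adult FOXA2 interval of the stretch lay 3.3 kb from the nearest of the 6.

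**Figure D4:**
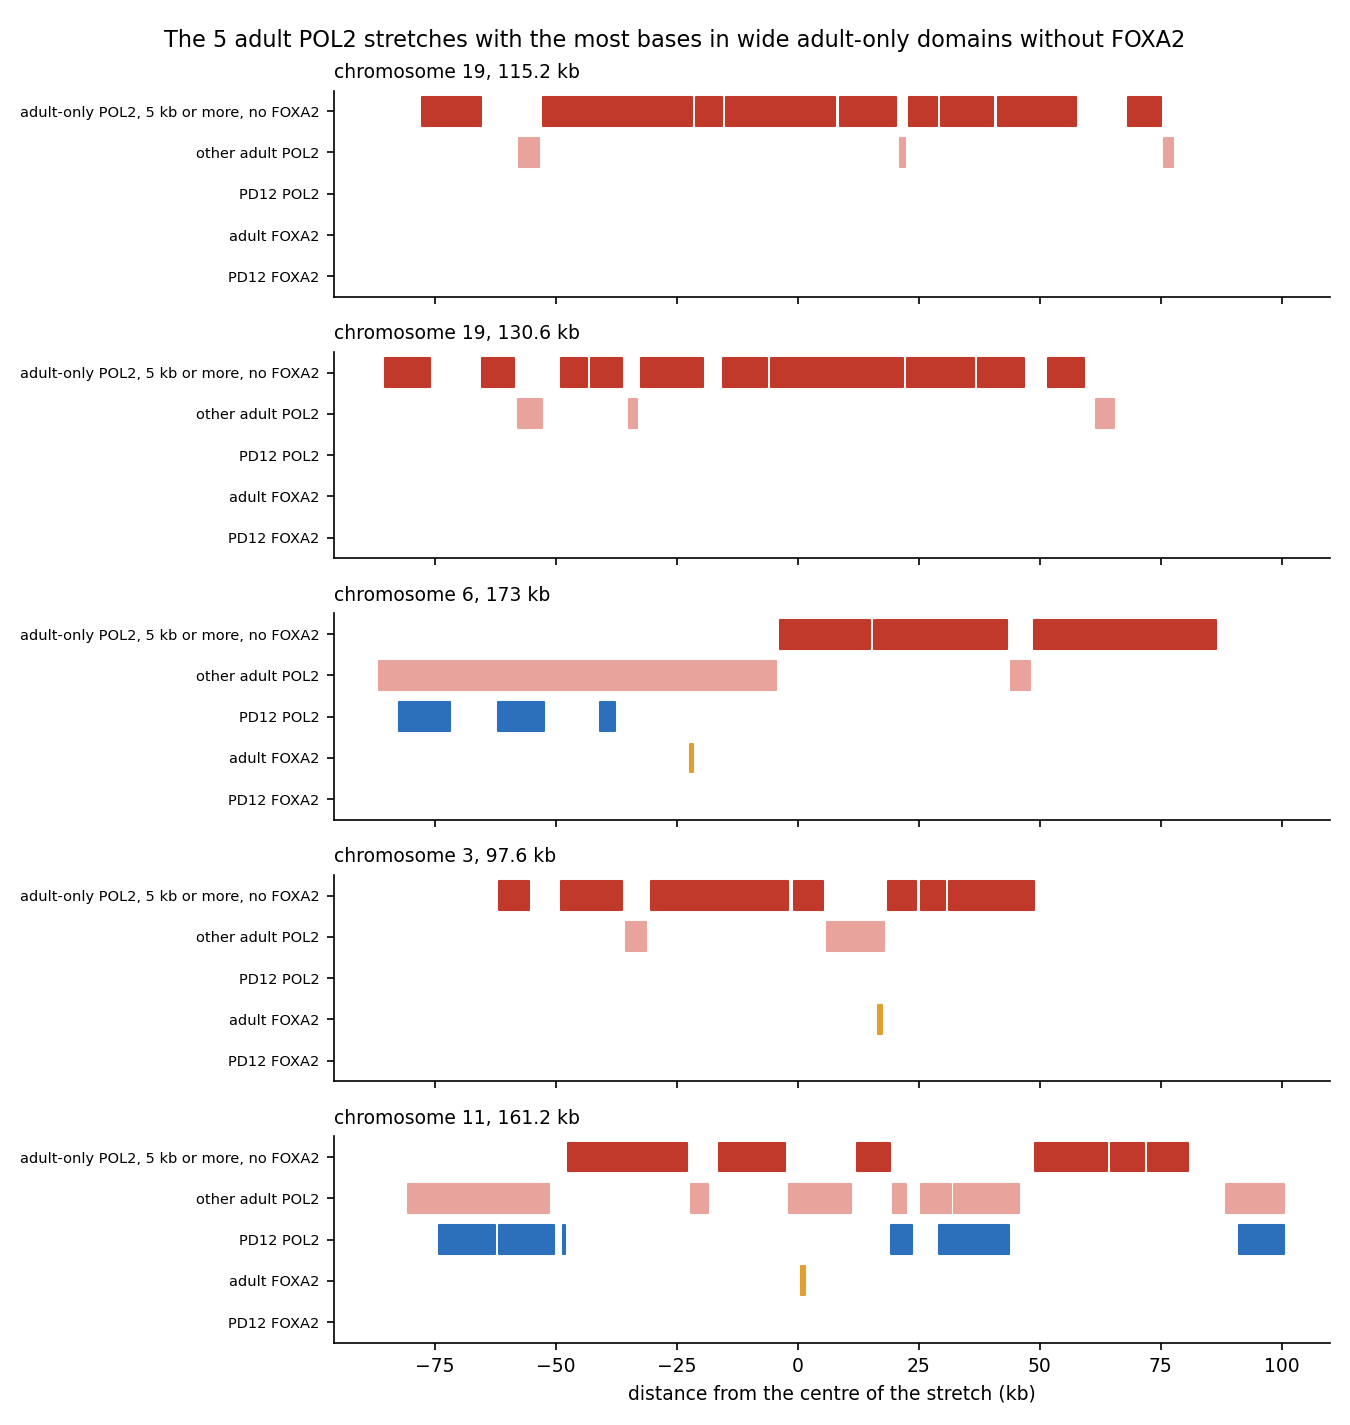
Called intervals along the 5 adult POL2 stretches with the most bases in wide adult-only domains without FOXA2, with 20 kb added at each side, against distance from the centre of the stretch (kb). Dark red bars are those domains, light red bars other adult POL2 domains, blue bars PD12 POL2 and yellow bars adult FOXA2. Both chromosome 19 stretches hold adult POL2 and no interval of the other lists, whereas PD12 POL2 lies within the chromosome 6 and 11 stretches.

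The 20 widest domains, of 23 kb or more, lay on 12 chromosomes. Each of them had more adult than PD12 POL2 in its flanks of 50 kb. Another adult domain lay within 2 kb of 16 of them. Over the whole set these shares were 78.2% and 33.6%, and over all wide adult domains 63.1% and 37.4%. Neither was computed for other adult domains of 23 kb or more. The 20 widest fell into 3 kinds by their distance from PD12 polymerase, with 9 at 50 kb or more, 6 between 10 and 50 kb and 5 under 10 kb.

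Among the 9 that were far from PD12 POL2, 3 were in the chromosome 19 run, 2 in the chromosome 6 stretch and 1 in the chromosome 3 stretch described above. The domain at chromosome 9, 48486800 to 48522999 (36.2 kb), had 77 kb of adult and 0 kb of PD12 POL2 in its flanks and 5 adult FOXA2 intervals within 50 kb, the nearest at 8.36 kb. It was 1 of 5 such domains in an adult stretch of 194.6 kb, and 3 other adult domains there carried FOXA2. At chromosome 3, 65336400 to 65368599 (32.2 kb), the flanks held 5.8 kb of adult and 0 kb of PD12 POL2, and adult FOXA2 was 114 kb away. The distances of these domains from adult FOXA2 differed widely.

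The remaining one of the 9 was at chromosome X, 166406200 to 166439199 (33 kb). It was the only adult domain of its stretch, with 4.4 kb of other adult POL2 in its flanks. The nearest PD12 POL2 domain was 2758.6 kb away, and an adult FOXA2 interval lay 34.5 kb away. Unlike most of the widest domains it had no adult neighbour within 33 kb.

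The 6 at intermediate distance were led by chromosome 11, 119274800 to 119309399 (34.6 kb), with 56.2 kb of adult and 7.6 kb of PD12 POL2 in its flanks, and by one of 34.2 kb on chromosome 9, between 116051800 and 116085999, with 49.2 and 3.4 kb. At chromosome 18, 64708200 to 64739799 (31.6 kb), the flanks held 70.4 kb of adult and 9.2 kb of PD12 POL2. Another, of 26.4 kb, lay on chromosome 6 between 66914000 and 66940399, and at 5.45 kb it was the nearest of the 20 widest to adult FOXA2. Chromosome 10 held one of 23.8 kb between 22362200 and 22385999, in flanks with 40 kb of adult and 17.4 kb of PD12 POL2. The last, of 23 kb, was on chromosome 16 between 94839200 and 94862199, with 25.8 and 14.4 kb.

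The 5 that lay close to PD12 POL2 were headed by chromosome 2, 132356000 to 132389799 (33.8 kb), which was 1.6 kb from a PD12 domain and had 12.4 kb of adult and 3 kb of PD12 POL2 in its flanks. At chromosome 4, 53096200 to 53126599 (30.4 kb), the PD12 domain was 7.2 kb away and the flanks held 78 kb of adult and 3 kb of PD12 POL2. The chromosome 11 domain given above was the third. The others were one of 24.2 kb on chromosome 12, between 71975200 and 71999399, and one of 24 kb on chromosome 10, between 57785200 and 57809199. PD12 POL2 was 2.8 kb from the first of these and 4.2 kb from the second. At 3 of these 5 the nearest adult neighbour was itself shared with PD12.

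The 5 domains farthest from PD12 POL2 were 5.4 to 7.6 kb wide, apart from one of 33 kb, against a median of 6800 bp in the set. A pair at chromosome 12, 97015800 to 97021199 (5.4 kb) and 97023400 to 97030999 (7.6 kb), lay 2885 and 2875 kb from it and had no further adult POL2 within 50 kb. The chromosome X domain of 33 kb came next. It was followed by chromosome 15, 55352200 to 55359799 (7.6 kb), at 2313 kb, and chromosome X, 165740000 to 165746399 (6.4 kb), at 2092 kb. The chromosome 15 domain had an adult FOXA2 interval at 28.8 kb and no other adult POL2 domain within 448 kb. In the whole set 152 domains (8.72%, 7.43 to 10.1) had no other adult POL2 domain within 50 kb. One lay within that distance of 91.3% (89.9 to 92.6) of the set. Over all wide adult domains, which include the set, this share was 89.5% (88.7 to 90.1). It was 89.1% (88.1 to 90.0) for the shared domains without FOXA2 and 87.0% (82.4 to 90.8) for the adult-only domains with FOXA2. Domains without an adult neighbour at this distance were thus no more frequent in the set than in either of these.

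Domains of this kind occurred on all 20 chromosomes in the list. Their share of the wide adult domains was highest on chromosome 6 at 30.1% (25.6 to 34.9) and lowest on chromosome 17 at 19.4% (15.1 to 24.2), against 24.0% over all. The interval included the share over all chromosomes on 18 of the 20. It lay above that share on chromosome 6 and below it on chromosome 7, at 19.5% (16.2 to 23.2). With a minimum width of 4000 bp the interval of chromosome 6 stayed above the share over all, at 35.1% (30.8 to 39.5) against 27.4%. With a minimum of 10000 bp it included the share over all. The 20 intervals were not adjusted for their number. No test between chromosomes was run.

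**Figure D5:**
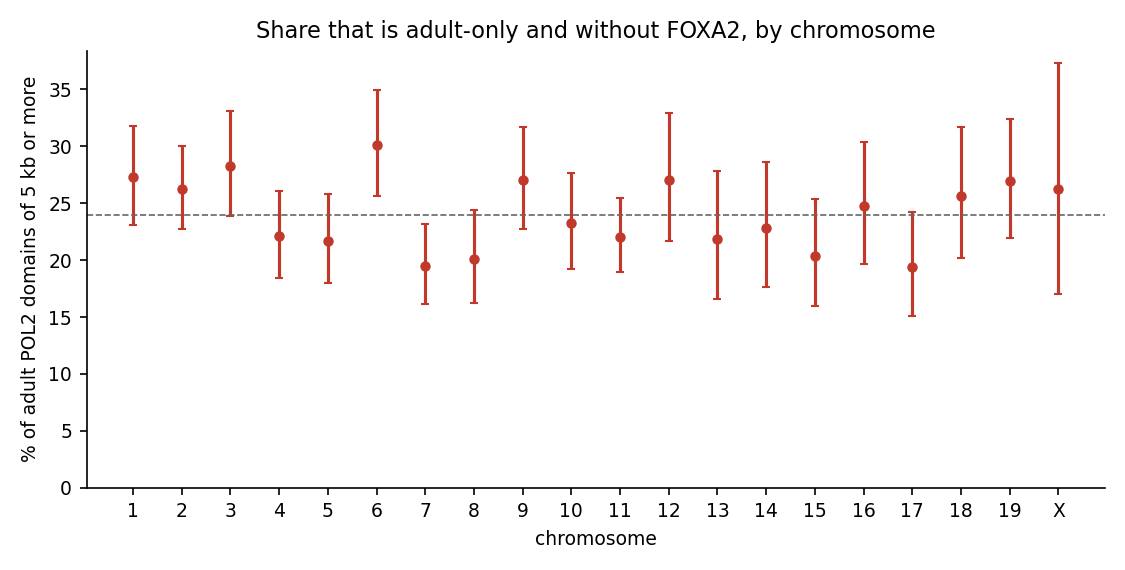
Percent of adult POL2 domains of 5 kb or more on each chromosome (horizontal) that were adult-only and without FOXA2 (vertical), with exact 95% binomial intervals for counting error as bars. The dashed line is the share over all chromosomes, 24.0%, and the intervals of 18 of the 20 chromosomes include it.

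The mirrored rule, applied to PD12 POL2 domains of 5 kb or more with no adult POL2 and no FOXA2 of either stage, was met by fewer domains. The adult set had 1744 of 14818 domains (24.0% of the wide ones) and the PD12 set 571 of 9972, which was 10.3% (9.51 to 11.1) of the 5546 wide ones. The median width was 6.8 kb in both sets, and the widest domain reached 37.6 kb in the adult set and 21 kb in the PD12 set. The adult domains lay a median of 20.2 kb from POL2 of the other stage and the PD12 domains 12.6 kb. The share within 10 kb of POL2 of the other stage was 34.6% (32.3 to 36.9) for the adult set and 44.5% (40.4 to 48.7) for the PD12 set. The adult list is longer and covers more bases, and the part of list length and depth in these differences was not tested.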

How the data were processed

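Per the labels' protocols, chromatin of whole uterus was crosslinked with formaldehyde, sheared by sonication and immunoprecipitated (goat anti-FOXA2, or rabbit antibody to serine 2-phosphorylated polymerase II). BWA was named in the submitters' processing notes, with no version. Not given in the sources used here were the interval caller and cutoff, the control and the build. The deposited files, 1 for each of 4 libraries, list where each interval begins and ends, per the file headers. Depth is unknown.

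From these positions, overlap (1 bp or more), gaps (free bases between intervals), joined stretches (gaps of up to 5 kb) and covered bases in flanks of 50 kb were computed with Python 3.11.15, numpy 2.4.6, pandas 2.3.3 and scipy 1.17.1, and figures with matplotlib 3.10.9. The functions were tested on simulated lists. The interval of a median comes from its order statistics. Regions named are the 20 widest, the 5 farthest from PD12 POL2 and the 5 stretches with the most bases. The domains and measures were chosen with earlier results of these data known. Gene positions and 22 gene lists were not analysed here, since no annotation of the files' build was used.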

Additional observations from a re-analysis of the deposited data

How the results depend on the processing

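Of 28 alternative values for 6 results, 14 were within the limits set for them (the 95% interval, or 1.5 times a count) and 14 moved outside. The number of domains was 1744. It was 287 at a minimum of 10000 bp, and between 1222 and 2457 at 6000 and 4000 bp, with gaps under 1000 bp also excluded, with overlaps under 10% allowed, with POL2 joined across 5 kb (1223) and without the FOXA2 lists. At a minimum of 4000 and 10000 bp the median width was 5800 and 12000 bp, and the share of wide domains on chromosome 6, an alternative added after the data were seen, was 35.1% (30.8 to 39.5) and 16.7% (10.9 to 24.0), against 27.4% and 11.5% over all chromosomes. At a minimum of 10000 bp, PD12 POL2 was within 10 kb of 31.7% and another adult domain within 10 kb of 76.0%. With gaps under 1000 bp also excluded, PD12 POL2 was within 10 kb of 31.1%. Within 5 kb, the shares were 21.9% for PD12 POL2, 7.63% for adult FOXA2 and 49.8% for another adult domain, and within 50 kb they were 69.8%, 51.0% and 91.3%. The alternatives differ in the domains or distances they count by construction. No paired analysis was possible because there is 1 library per group, and no replicate could be left out. The share in genes and the gene lists were not run. Unknown depth limits every statement that a domain is missing from a list.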

Other observations

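Some of the wide adult-only domains without FOXA2 stood 50 kb or more from PD12 POL2 and from FOXA2 of both stages. Those not named above were chosen here after their values were seen, as the next widest of that kind. At chromosome 7, 121174400 to 121196399 (22 kb), the flanks of 50 kb held 2.6 kb of adult POL2 and 0 kb of PD12 POL2, with PD12 POL2 at 158 kb and adult FOXA2 at 262.3 kb. The one at chromosome 5, 98379800 to 98398199 (18.4 kb), had 52.2 kb of adult POL2 in its flanks and lay 952.7 kb from adult FOXA2. The domain at chromosome 5, 140979400 to 140996599 (17.2 kb), had no other POL2 of either stage in its flanks, and adult FOXA2 and PD12 FOXA2 were both near 90 kb away, at 90.3 and 90.7 kb.

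Of the 1082 stretches that held such a domain and were free of PD12 POL2 and FOXA2, 15 held 3 or more. Beside the chromosome 19 pair, the one with the most of these bases was at chromosome 18, 30439000 to 30512999 (74 kb), with 7 domains of 5 to 9.4 kb. It lay 5.8 kb from a PD12 POL2 domain and 1327 kb from adult FOXA2.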
